A study of Mus musculus with 6 samples.

Results

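The circadian clock genes described here are Arntl, Clock, Per1, Per2, Per3, Cry1, Cry2, Nr1d1, Nr1d2 and Dbp, which were picked by name from the textbook loop, with earlier results of these data known. All 10 were found in the table of 54532 genes, and all 10 were among the 14801 genes that passed the filter on low counts. The study asked how Gli1+ cartilage cells, proposed as chondrogenic progenitors, differ in RNA from the Gli1- cells beside them. Each of the 6 libraries held RNA of 1 sorted population, with 3 Gli1+ (genotype Tdtomato+) and 3 Gli1- (genotype Tdtomato-) libraries that carried replicate numbers 1 to 3 in each population. All mice were Gli1-CreERT2; tdTomato animals on a c57BL/6 background, 1 month old, and were harvested 24 h after tamoxifen (TAM). Gli1+ and Gli1- cells came from the same mice, so the Cre allele, the reporter and TAM were shared by both populations. Recombination follows the Gli1 locus, and tdTomato therefore marks cells that used Gli1 when TAM was given. The labels name the growth plate as the tissue, whereas the results text of the study names costal cartilage for the RNA profiles. The methods describe an overnight digestion of costal cartilage in growth medium with serum, and a shorter digestion of growth plate cartilage. For the sequencing they name primary chondrocytes without the tissue. Leukocytes, endothelial cells and erythroid cells were set aside by antibodies against CD45, CD31 and Ter119. The hour of harvest of each mouse, and the number of mice behind a library, are not given in the sources used here.

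The circadian clock is a loop of transcription that most cells of the body run, including chondrocytes. The proteins CLOCK and BMAL1 (the product of Arntl) bind E-box sequences as a pair and switch on the Per and Cry genes, whose proteins return to the nucleus and inhibit that pair. The same pair switches on Nr1d1 and Nr1d2, which encode the REV-ERB repressors, and these in turn hold down Arntl through ROR elements. Dbp, another E-box gene, encodes a factor that binds D-box sequences in output genes and in Per genes. Levels of E-box genes and of Arntl therefore peak at different hours of the day in many tissues, and Per1 and Per2 also respond quickly to serum, cAMP and glucocorticoids.

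Promoter sequences are shown for Per1, Nr1d1 and Cry1 because these 3 genes followed each other most closely among the libraries, and a site is shown for Arntl because it is the member whose libraries separated the populations. RefSeq (GRCm38.p6) windows of 250 bases before to 50 bases after a transcript start were found for 9 of the 10 genes, 13 windows in all, and Per2 had none. Capitals mark an E-box (CACGTG) or its variant (CACGTT), searched on both strands, in the runs for Per1, Nr1d1 and Cry1, each of which is the 250 bases before a start, read 5′ to 3′ on the gene's strand. In the 30-base run for Arntl, which lies just after a start, capitals mark the core of a ROR element (TAGGTCA, with TGGGTCA also searched, on both strands). Nr1d1 held the variant at position -28 from its start, Per1 the E-box at -166 and Cry1 the E-box at -60 and the variant at -79. The RefSeq start used for Nr1d1 lies outside the listed gene span, which ends at 98775333. The end of its window was not found in a GENCODE transcript of the gene, unlike those of the windows printed for Per1, Cry1 and Arntl.
Per1, chr11:69098699-69098948, plus strand: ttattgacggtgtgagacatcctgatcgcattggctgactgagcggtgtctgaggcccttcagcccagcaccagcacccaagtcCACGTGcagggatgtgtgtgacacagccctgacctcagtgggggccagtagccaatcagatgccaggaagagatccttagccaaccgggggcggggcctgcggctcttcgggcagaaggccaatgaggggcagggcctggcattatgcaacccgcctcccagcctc
Nr1d1, chr11:98775378-98775627, minus strand: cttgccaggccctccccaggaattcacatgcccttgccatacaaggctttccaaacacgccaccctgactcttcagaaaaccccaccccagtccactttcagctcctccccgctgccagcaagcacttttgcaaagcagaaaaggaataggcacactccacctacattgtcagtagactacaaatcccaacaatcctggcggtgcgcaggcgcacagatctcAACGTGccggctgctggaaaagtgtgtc
Cry1, chr10:85185055-85185304, minus strand: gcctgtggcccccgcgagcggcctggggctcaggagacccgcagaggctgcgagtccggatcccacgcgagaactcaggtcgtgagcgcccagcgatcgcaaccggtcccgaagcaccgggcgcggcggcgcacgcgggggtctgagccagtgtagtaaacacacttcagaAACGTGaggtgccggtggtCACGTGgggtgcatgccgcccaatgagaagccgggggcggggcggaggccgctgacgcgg
Arntl, chr7:113207530-113207559, plus strand: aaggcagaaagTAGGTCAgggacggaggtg
Of all 32851 RefSeq windows of the same length, 7.15% held the E-box, 4.68% its variant and 6.45% the ROR element core. The D-box (TTATGTAA, with TTACGTAA also searched, on both strands) was found in 1.06% of all windows, and in that of Per3. Cry2 held the E-box variant, and the windows of Clock, Nr1d2 and Dbp held none of the 4 motifs. The other window of Per1 (chr11:69099902-69100201) and the other window of Arntl (chr7:113207215-113207514) also held none. Each printed run was taken from the first window of its gene that held a motif, so the printed windows were chosen for holding a site. These letters describe the windows, and no binding was measured.

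Gli1, whose locus drives the label, was at 4.55, 6.39 and 7.98 CPM in Gli1+ replicates 1, 2 and 3 and at 0.724, 1.26 and 2.43 CPM in Gli1- replicates 1, 2 and 3. CPM here is the count divided by the library's total and brought to a common library size after TMM scaling, which corrects for differences in composition. Library totals ran from 17114101 to 18602482 counts. Gli1+ replicate 1 stood apart, with a count in 15000 genes against 20666 to 23360 in the other libraries, and the fits, likenesses and orders that rest on it most are also given without it. Chondrocyte markers were present in every library, with the 10 markers summing to between 6911 and 28737 CPM and both replicate 2 libraries highest. Leukocyte markers summed to 3344 CPM in Gli1- replicate 1, where the neutrophil genes S100a9 and S100a8 led at 1395 and 1145 CPM, and to 12.4 to 79.6 CPM elsewhere. Fibroblast markers summed to 1647 to 9585 CPM, osteoblast markers to 1270 to 7184 CPM, endothelial markers to at most 9.41 CPM, erythroid markers to at most 18.4 CPM and skeletal muscle markers to 1.06 to 35.002 CPM.

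All 10 clock genes were well above the floor of 3 counts in every library, the lowest count being 85 for Dbp in Gli1+ replicate 1. Per kilobase of the listed gene length, the scale on which genes can be compared, Nr1d1 was by far the most abundant, with a mean of 263 CPM per kb over the 6 libraries. Nr1d2 followed at 53.3, Per1 at 37.8, Dbp at 33.1 and Cry1 at 29.0 CPM per kb. Cry2 stood at 14.9, Per2 at 10.6, Clock at 5.35, Arntl at 3.67 and Per3 at 1.18 CPM per kb. Apart from Per3, the targets of the loop were thus listed above the activator genes Clock and Arntl. Among neighbours in this order, Nr1d1 was above Nr1d2, Cry1 above Cry2 and Arntl above Per3 in 6 of 6 libraries, whereas Clock was above Arntl in 3 of 6 and Dbp above Cry1 in 2 of 6. The order within those last pairs therefore differed from library to library.

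**Figure D1:**
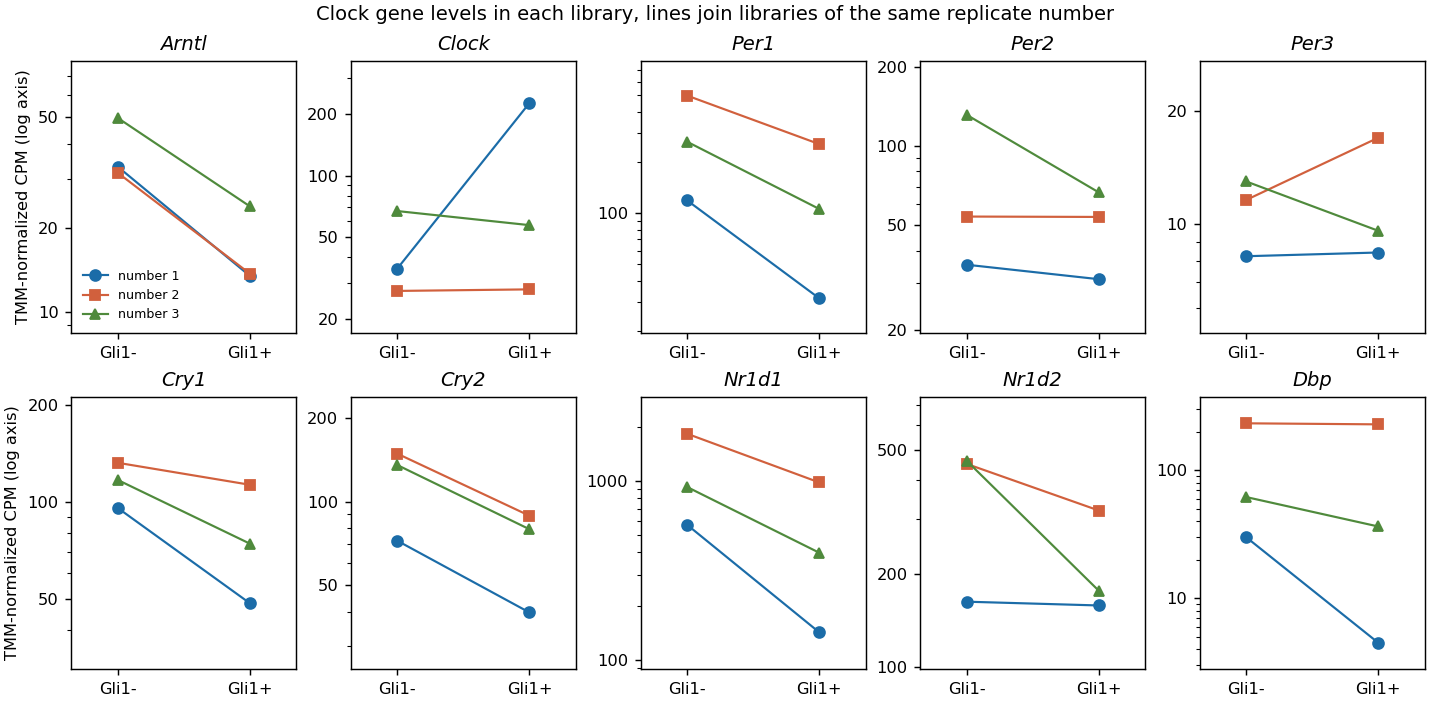
Level of each clock gene in each library (y axis, TMM-normalized CPM on a log axis) for Gli1- and Gli1+ cells (x axis), with 1 panel a gene, 1 point a library and a line joining libraries that share a replicate number. The Gli1+ libraries lie below all Gli1- libraries in the panel of Arntl alone, and number 1 is lowest and number 2 highest in both populations in the panels of Per1, Cry1, Cry2, Nr1d1 and Dbp.

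The activators were taken up next. Arntl, which encodes BMAL1, was at 13.4, 13.7 and 23.9 CPM in Gli1+ replicates 1, 2 and 3 and at 33.2, 31.6 and 49.7 CPM in Gli1- replicates 1, 2 and 3. Each Gli1+ library lay below each Gli1- library, so the groups did not overlap. Enumeration of all splits in an exact permutation test (2-sided) gave p = 0.1, and no smaller value is possible with 3 libraries a group. That value follows from the lack of overlap and adds nothing to it. In sorted pools, fewer cells that use a gene and less RNA per cell cannot be told apart. Arntl lies on chromosome 7 (GRCm38, chr7:113207465-113314126, plus strand). The mean level was 17.0 ± 5.96 CPM for Gli1+ against 38.1 ± 10.01 CPM for Gli1- cells (SD, n = 3 each), and within the replicate numbers 1, 2 and 3 the Gli1- level was 2.47, 2.31 and 2.08 times the Gli1+ level. The log2FC of Gli1+ over Gli1- cells was -1.16 with a standard error of 0.43, and edgeR's quasi-likelihood test gave an unadjusted p of 0.0276 and an adjusted p of 0.9999. That p was over 0.05 without Gli1+ replicate 1 (0.0582), Gli1+ replicate 2 (0.0818) or Gli1- replicate 3 (0.122). Of the 10 clock genes, Arntl was the only one that passed at an unadjusted p under 0.05 with all libraries and the only one whose populations did not overlap. Over all 14801 genes 3.47% had such a p in either direction and 2.04% with the lower level in Gli1+ cells. The populations did not overlap in 8.49% of genes, and in 4.45% the Gli1+ libraries were the lower ones.

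Clock, the partner of Arntl, was at 226, 27.9 and 57.4 CPM in Gli1+ replicates 1, 2 and 3 and at 35.2, 27.5 and 67.2 CPM in the Gli1- libraries. The value of Gli1+ replicate 1 was 8.22 times the lowest one, and the other 5 libraries of both populations overlapped. The log2FC was 1.26 (standard error 0.77) with all libraries and -0.039 without Gli1+ replicate 1, so this 1 library set its direction. Clock is also the longest of the 10 genes at 13727 bases, and 2 genes listed within it on the same strand, Ube2n-ps1 and Gm43658, held 195 and 42 counts over all libraries against 8180 for Clock.

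Among the repressors, Per1 (chr11:69095217-69109960, plus strand) showed the widest range. It was at 31.4, 257 and 106 CPM in Gli1+ replicates 1, 2 and 3 and at 119, 497 and 265 CPM in Gli1- replicates 1, 2 and 3. In both populations number 2 was highest and number 1 lowest, and within each number the Gli1- level was the higher one, by 3.80, 1.94 and 2.50 times for numbers 1, 2 and 3. The populations overlapped, and the log2FC of -1.16 had a standard error of 0.80. It was -2.11 without Gli1+ replicate 2, -0.56 without Gli1- replicate 2 and -0.71 without Gli1+ replicate 1.
Per2 was at 31.1, 53.7 and 66.5 CPM in the Gli1+ libraries and at 35.3, 53.8 and 131 CPM in the Gli1- libraries, in the order of numbers 1, 2 and 3. Unlike for Per1, number 3 was highest in both populations. The log2FC of Per2 was -0.54 (standard error 0.57), and 0.18 without Gli1- replicate 3. Per3, the least abundant member, was at 8.41, 17.0 and 9.61 CPM in Gli1+ replicates 1, 2 and 3 and at 8.22, 11.6 and 13.0 CPM in the Gli1- libraries, with a log2FC of 0.093 (standard error 0.49). Per3 lies within Camta1 on the same strand, which held 1398 counts against its 1199, so reads of Camta1 may be included.
Cry1 and Cry2 encode cryptochromes, the partners of the PER proteins. Cry1 was at 48.4, 113 and 74.2 CPM in Gli1+ and at 95.9, 132 and 117 CPM in Gli1- replicates 1, 2 and 3, a log2FC of -0.55 (standard error 0.43). Cry2 was at 39.7, 88.9 and 79.5 CPM in Gli1+ and at 72.2, 149 and 136 CPM in Gli1- replicates 1, 2 and 3, a log2FC of -0.78 (standard error 0.47). The order of the numbers was 2, 3, 1 from the highest for both genes in both populations, and the ratio of Gli1- to Gli1+ was even for Cry2, at 1.82, 1.68 and 1.71 within numbers 1, 2 and 3.

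The REV-ERB gene Nr1d1 (chr11:98767932-98775333, minus strand) reached the highest levels of the set, at 143, 982 and 398 CPM in Gli1+ replicates 1, 2 and 3 and at 570, 1838 and 927 CPM in Gli1- replicates 1, 2 and 3. Its order of numbers was that of Per1, and within numbers 1, 2 and 3 the Gli1- level was 3.99, 1.87 and 2.33 times the Gli1+ level. The log2FC was -1.13 with a standard error of 0.77, and it was -2.05 without Gli1+ replicate 2, -0.58 without Gli1- replicate 2 and -0.70 without Gli1+ replicate 1. Nr1d1 shares 1075 bases with Thra on the opposite strand, a thyroid hormone receptor gene with 4541 counts against 82538, and without known strand the reads of this stretch cannot be told apart. Nr1d2 was at 158, 320 and 176 CPM in Gli1+ and at 163, 451 and 462 CPM in Gli1- replicates 1, 2 and 3, with a log2FC of -0.72 (standard error 0.54). Number 1 was lowest in both populations, while numbers 2 and 3 stood in different orders.
Dbp (chr7:45705088-45710203, plus strand), the output factor, varied most of all. It was at 4.50, 228 and 36.4 CPM in Gli1+ replicates 1, 2 and 3 and at 30.1, 233 and 61.8 CPM in Gli1- replicates 1, 2 and 3. The highest library held 51.7 times the lowest, and both replicate 2 libraries were nearly level. The log2FC of -0.27 was far smaller than its standard error of 1.22, and it ran from -2.41 to 0.96 with each library left out in turn. Dbp shares 737 bases with Sphk2 on the opposite strand, which held 2799 counts against 9755 for Dbp.

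Compared as independent samples, the populations gave 0 clock genes past the thresholds of the study (|log2FC| over 1 and adjusted p under 0.05) from edgeR's quasi-likelihood test, against 0.00% of all genes tested (0 genes, with 514 at an unadjusted p under 0.05 and 30 called by DESeq2). The median log2FC of the 10 genes was -0.63 against 0.0013 over all genes, with 8 lower and 2 (Clock and Per3) higher in Gli1+ cells. Fibroblast and perichondrium markers had a median log2FC of -1.25, with 6 of 7 lower in Gli1+ cells, where 7388 of all 14801 genes were lower. Of these markers, 1 of 7 had an unadjusted p under 0.05 without the number as a block and 3 of 7 with it, all lower. Over all genes 2.04% and 5.25% were lower at such a p. In 3 of 3 pairs of replicate numbers 3 of 7 were lower, against 19.8% of all genes. Leukocyte markers had a median log2FC of -4.96, with 6 of 7 lower in Gli1+ cells. Of these markers, 4 of 7 had an unadjusted p under 0.05 without the block, all lower, and 0 of 7 with it. In 3 of 3 pairs 0 of 7 were lower, and their sum was high in Gli1- replicate 1 alone (3344 CPM). The part of either marker list in the clock gene levels was not tested. Within the replicate numbers, 8 of 10 clock genes were lower in Gli1+ cells in 3 of 3 pairs, against 19.8% of all genes. In that count Per2 and Dbp in number 2, and Nr1d2 in number 1, differed by ratios of only 1.003, 1.02 and 1.03, and with RLE in place of TMM scaling the count was also 8.
Libraries of numbers 2 and 3 varied together, with correlations over genes of 0.720 and 0.471, and those of number 1 less so, at 0.223. Gli1+ replicate 1 correlated more with Gli1- replicate 3 (0.274). The populations were therefore also compared within numbers, by taking the number into the model as a block, although its premise was weak for number 1. With the block, Arntl (log2FC -1.19, standard error 0.27), Per1 (-1.40, 0.30), Nr1d1 (-1.37, 0.32) and Cry2 (-0.79, 0.24) had an unadjusted p under 0.05. These 4 of 10, all lower in Gli1+ cells, stood against 8.61% of all genes in either direction and 5.25% in that direction. None passed after adjustment, with an adjusted p of 0.381 for Arntl, 0.381 for Per1, 0.382 for Nr1d1 and 0.481 for Cry2 from edgeR's quasi-likelihood test with the block. With each library's trend with GC content removed as well, Nr1d2 (unadjusted p = 0.0160 in that test) took the place of Cry2 (0.109) among the 4. In DESeq2 (Wald test) the blocked model called 3 of 10, all lower in Gli1+ cells, against 2.89% of all genes in either direction and 2.11% in that direction. These were Arntl (adjusted p = 0.0223, against 0.000104 to 1.00 over the alternatives), Per1 (0.00368, against 1.62e-05 to 1.00) and Nr1d1 (0.00629, against 5.78e-05 to 1.00). The same 3 genes were called by edgeR with the block and by DESeq2 with the block when Gli1+ replicate 1 was left out, at a log2FC of -1.13, -1.14 and -1.07 for Arntl, Per1 and Nr1d1 in edgeR. In that setting edgeR called 1107 genes. Without Gli1- replicate 1 it called 1148 genes and the same 3 clock genes, and without any one of the other 4 libraries 0 genes. A blocked fit that lacks a library rests on 2 pairs and 1 residual degree of freedom, and these calls arose on leaving out either library of number 1.

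**Figure D2:**
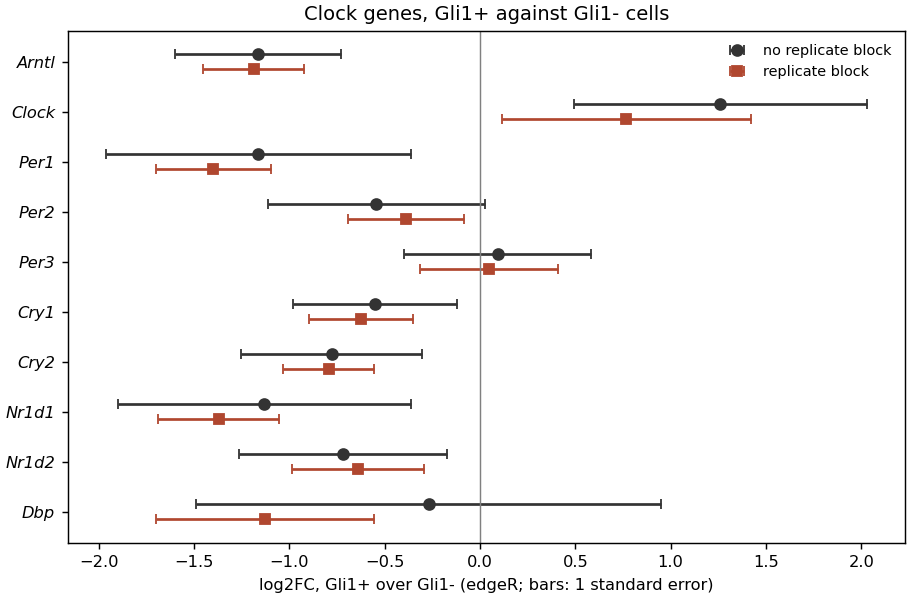
Log2FC of Gli1+ over Gli1- cells (x axis, edgeR) for each clock gene (y axis), with circles for the fit without and squares for the fit with a replicate block, and bars of 1 standard error. The bar of every gene is shorter with the block, and the estimate of Dbp moves from -0.27 to -1.13.

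The replicate numbers were then compared over both populations, with the population kept in the model. The labels do not say what a number stands for beyond a replicate. Number 2 was above number 1 by 4.18 on the log2 scale for Dbp (standard error 0.76), by 2.54 for Per1 (0.38) and by 2.22 for Nr1d1 (0.40). In linear terms the Dbp level of number 2 was 50.8 times that of number 1 in Gli1+ and 7.73 times in Gli1- cells. For Per1 these ratios were 8.18 and 4.17, and for Nr1d1 they were 6.87 and 3.22, so both populations showed the same direction and Gli1+ cells the larger step. Whether the step differed between the populations could not be tested, since each number had 1 library a population.
The difference of number 2 over 1 was 1.21 for Nr1d2 (standard error 0.42), 1.10 for Cry2 (0.29), 0.85 for Cry1 (0.34), 0.78 for Per3 (0.44) and 0.71 for Per2 (0.37) on the log2 scale. For Arntl it was -0.024 (0.32), and Clock was lower in number 2, at -1.94 (0.80). Without Gli1+ replicate 1 the value for Clock was -0.35, that for Dbp 3.09, that for Per1 2.10 and that for Nr1d1 1.71. Number 3 was above number 1 by 1.52 for Per2 (0.38), 1.81 for Dbp (0.69), 1.43 for Per1 (0.37) and 0.71 for Arntl (0.32). Per2 and Arntl were thus the members highest in number 3 in both populations, while Per1, Cry1, Cry2, Nr1d1 and Dbp were highest in number 2.

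Of the 10 genes, Per1, Dbp, Nr1d1, Per2 and Cry2 had an unadjusted p under 0.05 for the number, which is 5 of 10 against 25.5% of all genes. After adjustment edgeR's quasi-likelihood F test called 0 of 10 at 0.05, where 0.00% of all genes passed (0 genes, with 3775 at an unadjusted p under 0.05). At an adjusted p under 0.1, 3 of 10 passed (Per1, Nr1d1 and Dbp), against 8.20% of all genes. The adjusted p was 0.0863 for Per1, 0.0897 for Dbp, 0.0924 for Nr1d1, 0.138 for Per2 and 0.147 for Cry2 in that test. DESeq2's likelihood ratio test called the same 5 genes, against 21.5% of all genes, with an adjusted p of 8.12e-07 for Dbp (4.47e-28 to 0.36 over the alternatives), 3.36e-06 for Per1 (7.73e-15 to 0.563) and 7.22e-05 for Nr1d1 (5.76e-14 to 0.696). For Per2 it gave 0.0268 (1.97e-05 to 0.696) and for Cry2 0.042 (0.000465 to 0.906).
Differences between numbers were common to the whole transcriptome. The number accounted for a median of 60.8% of the variance of log2 CPM in the clock genes and 61.3% in all genes, so the clock genes as a set did not stand out on that measure. The population accounted for a median of 26.7% in the clock genes and 10.8% in all genes, with 75.1% for Arntl. Number 1 was the lowest in both populations for 8 of 10 clock genes against 16.3% of all genes, and number 2 the highest in both for 5 of 10 against 31.7%. In Gli1- cells alone, which do not involve the library that stood apart, number 1 was lowest for 8 of 10 clock genes against 31.2% of all genes. There number 2 was highest for 5 of 10, against 41.5% of all genes. Number 1 of the Gli1- cells is the library whose leukocyte markers summed to 3344 CPM. The full order of the numbers was the same in both populations for 6 of 10, against 32.8% of all genes.

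**Figure D3:**
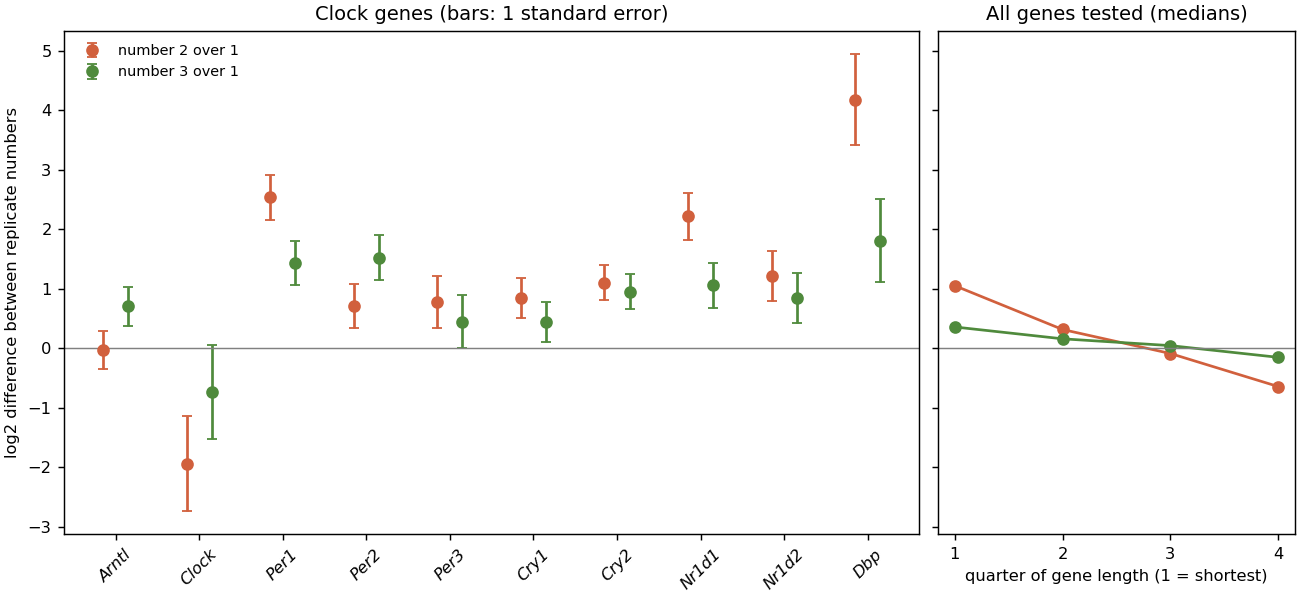
Left, log2 difference of replicate number 2 over 1 and of 3 over 1 (y axis) for each clock gene (x axis), from edgeR over both populations with bars of 1 standard error. Right, the median of the same differences over all genes tested in each of 4 bins of gene length, which for number 2 over 1 falls from 1.05 in the shortest bin to -0.64 in the longest.

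Gene length moved with the number as well. Over all genes, the median difference of number 2 over 1 was 1.05 in the shortest of 4 equal bins of listed gene length (57 to 2369 bases) and -0.64 in the longest (6414 to 123179 bases). Cry1, Nr1d1 and Dbp lie in the bin from 2370 to 4042 bases, where the median was 0.32, Per1, Per2, Cry2 and Nr1d2 in the next one, where it was -0.088, and Arntl, Clock and Per3 in the longest. With each library's trend with length removed, number 2 over 1 was 3.84 for Dbp, 2.72 for Per1 and 1.86 for Nr1d1, and -0.89 for Clock. In that fit 6 of 10 clock genes had an unadjusted p under 0.05 for the number, Nr1d2 having joined the 5, against 26.3% of all genes. The large steps of Dbp, Per1 and Nr1d1 were thus about as large without the length trend, while that of Clock was smaller. Among the other members, Per3 went from 0.78 to 1.38, Cry1 from 0.85 to 0.56 and Arntl from -0.024 to 0.40. With the trend with GC content removed instead, 5 of 10 had an unadjusted p under 0.05 for the number, against 5021 of all 14801 genes. Clock and Nr1d2 were then among them in place of Per2 and Cry2.

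Likeness between genes was measured as Pearson's coefficient of log2 CPM over the 6 libraries, which share mice and are not independent, so it is given as a description. Among the 14800 other genes, Nr1d1 ranked 5 for likeness to Per1 (0.995) and Per1 ranked 7 for likeness to Nr1d1. Cry1 ranked 77 for Per1 and 47 for Nr1d1, Cry2 ranked 219 and 581, Dbp 286 and 449, and Nr1d2 1605 and 2230. Per2, Per3 and Arntl ranked between 3904 and 5500 for both, and Clock ranked 13343 and 13615, with coefficients of -0.83 and -0.86. Without Gli1+ replicate 1 these were -0.43 and -0.54, and that between Per1 and Nr1d1 was 0.985. Genes outside the clock came closer still to single members. The 5 genes most like Dbp were Atp5l, Rps27, 2310014F06Rik, Wdr31 and Trmo (0.996 to 0.999), and Atp5l and Rps27 encode a subunit of the ATP synthase and a ribosomal protein. The 5 most like Arntl were Rab11fip4, Sgsm2, Cxxc5, Rab22a and Clcn6 (0.974 to 1.00).

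A wider set of clock genes was read in the same way. Npas2 and Arntl2, relatives of Clock and Arntl, were low, at 3.07 to 8.41 and 0.517 to 2.28 CPM, and neither had an unadjusted p under 0.05 in either comparison. Of 10 listed repressors, 5 had such a p for the number, all with number 2 above 1, against 25.5% of all genes in any direction and 13.4% with number 2 above 1. Besides Per1, Per2 and Cry2 these were Bhlhe40 and Bhlhe41, which encode DEC repressors of E-box genes. Bhlhe41 was at 71.2 and 87.3 CPM in the Gli1+ and Gli1- libraries of number 2, and at most at 19.9 CPM in the other 4. Bhlhe40 was 1.30 higher in number 2 than in 1 on the log2 scale and Bhlhe41 2.92 higher. Of the D-box factors, Tef and Hlf followed Dbp with 1.23 and 2.32. Among 4 listed factors 3, with Dbp counted again, had an unadjusted p under 0.05 for the number, all with number 2 above 1. Over all genes 25.5% had such a p in any direction and 13.4% with number 2 above 1. Nfil3, the repressor at the same sites, was at 15.9 to 41.2 CPM in Gli1+ and 27.0 to 55.3 CPM in Gli1- cells and had no such p.
Rora, an activator at ROR elements, was at 52.4 to 79.95 CPM in Gli1+ and 56.0 to 135 CPM in Gli1- cells, and it had no such p. Of 14 genes of kinases, ubiquitin ligases and deubiquitinases that act on PER and CRY proteins, 13 were tested. The kinase gene Csnk2a2 and the deubiquitinase gene Usp7 had an unadjusted p under 0.05 for the number, which is 2 of 13 against 25.5% of all genes. Both were lower in number 2 than in 1, with differences of -1.28 and -1.99 on the log2 scale. In the comparison of populations, of all these lists Arntl alone had an unadjusted p under 0.05 without the block.

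The E-box arm of the loop (Per1, Per2, Per3, Nr1d1, Nr1d2, Dbp, Tef and Ciart) and the arm driven through ROR elements (Arntl, Clock, Npas2, Cry1 and Nfil3) were averaged in each library as log2 CPM after each gene had been centred on its mean over the 6 libraries. Cry1 also carries E-boxes, as printed above for its promoter. The E-box arm was at -1.54, 0.65 and -0.19 in Gli1+ replicates 1, 2 and 3 and at -0.44, 0.91 and 0.61 in Gli1- replicates 1, 2 and 3. The ROR-element arm ranged less, at -0.31, -0.10 and -0.21 in Gli1+ and at 0.028, 0.25 and 0.35 in Gli1- replicates 1, 2 and 3. The difference between the arms was -1.23, 0.75 and 0.021 in Gli1+ and -0.46, 0.66 and 0.26 in Gli1- replicates 1, 2 and 3. In both populations number 2 was thus highest, number 3 between and number 1 lowest. Number 1 had the lowest value of both arms in each population, so the arms were not in opposite order. Without Clock, the ROR-element arm was at -0.90, 0.11 and -0.29 in Gli1+ and at 0.19, 0.55 and 0.35 in Gli1- replicates 1, 2 and 3, which is the order of the E-box arm.

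**Figure D4:**
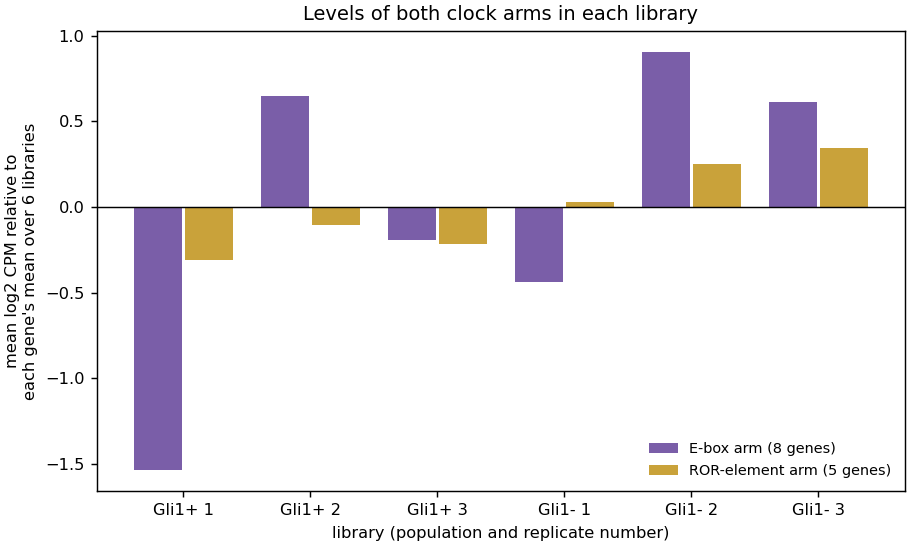
Mean of log2 CPM, centred per gene over the 6 libraries (y axis), of the 8 genes of the E-box arm and the 5 genes of the ROR-element arm in each library (x axis). The E-box arm runs from -1.54 in Gli1+ replicate 1 to 0.91 in Gli1- replicate 2, and the ROR-element arm from -0.31 to 0.35.

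Genes that respond to cell handling and to glucocorticoids were read beside the clock genes. The 10 listed immediate early and heat shock genes summed to 2005, 16202 and 6334 CPM in Gli1+ replicates 1, 2 and 3 and to 11275, 33314 and 17160 CPM in Gli1- replicates 1, 2 and 3, which in each population is the order of Per1 and Nr1d1. Of these 10 genes, 7 (Fos, Fosb, Jun, Atf3, Hspa1a, Hspa1b and Dusp1) had an unadjusted p under 0.05 for the number, all with number 2 above 1, where 13.4% of all genes did so. The median log2FC of the list between the populations was -1.27, and 7 of 10 were lower in Gli1+ cells in 3 of 3 pairs, against 19.8% of all genes. Without the block 0 of 10 had an unadjusted p under 0.05 between the populations, against 3.47% of all genes. With the block the median was -1.52 and 6 of 10 had such a p, all lower in Gli1+ cells. Over all genes these shares were 8.61% in either direction and 5.25% in that direction. DESeq2 with the block called 6 of 10, against 2.89% of all genes. Jun, an immediate early gene, was 2.69 higher in number 2 than in number 1 on the log2 scale, and Atf3, a stress factor, 3.12 higher. Of 9 genes of the glucocorticoid response, 4 (Tsc22d3, Klf9, Sgk1 and Mt1) had such a p for the number, also with number 2 above 1, against the same 13.4%. Between the populations this list had a median log2FC of -0.45 without and -0.029 with the block. In 3 of 3 pairs, 4 of its 9 genes were lower in Gli1+ cells, against 19.8% of all genes, and 1 was higher. With the block, 3 of 9 had an unadjusted p under 0.05, against 8.61% of all genes. Of these, 2 were lower in Gli1+ cells, against 5.25% of all genes. Sgk1, a kinase gene of the list, was higher in Gli1+ cells, with a log2FC of 1.01 in DESeq2 with the block (adjusted p = 0.024). Tsc22d3, which encodes the protein GILZ, was at 18.4, 190 and 71.6 CPM in Gli1+ and at 39.1, 162 and 43.0 CPM in Gli1- replicates 1, 2 and 3. Fkbp5, another glucocorticoid target, stood the other way, with number 2 lowest in both populations at 26.3 and 31.5 CPM, and Mt2 was at -0.98 for number 2 over 1 on the log2 scale, without such a p. The part of these genes, of gene length and of chondrocyte content in the clock gene levels was not tested, and the hour of harvest, where it differed, cannot be told apart from anything else that differed between the numbers.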

How the data were processed

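The authors deposited 1 table of counts, whole numbers of reads per gene for each of 6 libraries, neither normalized nor pooled. The submitters' processing notes name HISAT2 2.0.5, featureCounts 1.5.0-p3 and mm10. The use of strand is not given in the sources used here. The 10 genes had the same coordinates in GENCODE M21 (GRCm38). Of the columns with per-sample values, 0 were left unused.
Low genes were removed by filterByExpr of edgeR at a minimum count of 10, and libraries were scaled by TMM. The quasi-likelihood test of edgeR 4.0.16 (R 4.3.3) was applied to the populations, and to the replicate numbers with the population as a covariate, with Benjamini-Hochberg adjustment over all 14801 genes. A prior count of 2 was used for log2 CPM. Standard errors were derived from the F statistic of edgeR's test and cover the spread between libraries that a fit leaves over. In fits with the number, that is the spread left after number and population. The labels do not say which mice a library came from. Members and lists were chosen with earlier results of these data known. Named genes were the 10 members, Gli1, the 5 most like Dbp and Arntl, and, of each list, those with an unadjusted p under 0.05 in either comparison or else at most 3 abundant ones. Fkbp5, Mt2, Nfil3, Npas2, Arntl2, Rora and genes overlapping members were outside this rule and named after their values were seen. The list of REV-ERB and ROR receptors is not reported here as a whole.
Deviations from the population means of same-numbered libraries correlated over genes at 0.223, 0.720 and 0.471 for numbers 1, 2 and 3, and, the study having sorted both populations from the same mice, the numbers were treated as pairs. Gli1+ replicate 1 correlated more with Gli1- replicate 3 (0.274) than with its own number. Alternatives were RLE scaling, DESeq2 1.42.0, no filter, the adjusted p alone, the replicate block and each library left out. Removal of trends with length or GC content (lowess span of 0.3, as offsets), fits with the block and each library left out, DESeq2 without Gli1+ replicate 1 and an adjusted p under 0.1 were added after seeing the data. The edgeR fits, the DESeq2 fits and the length correction were run on simulated data. Those data had less spread between libraries than these and no trend with length. They therefore cannot give the error rates of the fits here, or show how well a length trend is removed.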

Additional observations from a re-analysis of the deposited data

How the results depend on the processing

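In the comparison of populations, RLE scaling, the adjusted p alone, the replicate block, the length and GC corrections and each library left out in turn (0 to 0 genes) kept 0 genes and 0 clock genes called. DESeq2's Wald test called 30 genes without the block and 428 with it, no filter 267. Without Gli1+ replicate 1, edgeR with the block called 1107 and DESeq2 with the block 800, and without Gli1- replicate 1 edgeR with the block called 1148. Clock genes called were 3 with DESeq2 and the replicate block, and 3 in each of those fits with the block but without a library of number 1. At an unadjusted p under 0.05 there were 514 genes and 1 clock gene, against 1316 and 3 with no filter, 1274 and 4 with the replicate block, 1734 and 5 with DESeq2 and the block, 1625 and 4 with the length trend removed and the block, 1688 and 4 with the GC trend removed and the block, 279 to 1199 and 0 to 3 with each library left out, and 3809 and 7 (edgeR) or 2643 and 5 (DESeq2) with the block without Gli1+ replicate 1, or 3927 and 7 (edgeR) without Gli1- replicate 1. With the block and each library left out in turn, 455 to 3927 genes and 2 to 7 clock genes had such a p.
In the comparison of numbers, 0 genes and 0 clock genes were called, against 3184 and 5 with DESeq2, 2552 and 5 with no filter, 1287 and 3 with the GC trend removed, 1214 and 3 at an adjusted p under 0.1, 6996 and 7 with DESeq2 without Gli1+ replicate 1, and 0 to 12020 and 0 to 9 with each library left out. Leaving out Gli1+ or Gli1- replicate 1 gave 9338 and 12020 calls with 1 residual degree of freedom. At an unadjusted p under 0.05, 3775 genes and 5 clock genes became 1109 to 12287 and 3 to 9 with each library left out, and 8040 and 8 with DESeq2 without Gli1+ replicate 1.
The direction between the populations turned for Clock without Gli1+ replicate 1 (-0.039, and -0.11 with the block in edgeR and in DESeq2) or without Gli1- replicate 1 with the block (-0.10), for Per2 without Gli1- replicate 3 (0.18), for Per3 without Gli1+ replicate 2 (-0.29, and -0.21 with the block), without Gli1- replicate 2 with the block (-0.24), without Gli1- replicate 1 (-0.080) and with the length trend removed and the block (-0.073), and for Dbp without Gli1+ replicate 1 (0.28), Gli1+ replicate 3 (0.11) or Gli1- replicate 2 (0.96). That of the other 6 clock genes, and of every clock gene between the numbers that differed most, was the same in all alternatives run. With each library left out in turn, the log2FC ran from -0.039 to 1.72 for Clock, from -0.88 to 0.18 for Per2, from -0.29 to 0.26 for Per3 and from -2.41 to 0.96 for Dbp. It ran from -1.50 to -0.93 for Arntl, from -2.11 to -0.56 for Per1, from -2.05 to -0.58 for Nr1d1, from -0.92 to -0.32 for Cry1, from -1.04 to -0.52 for Cry2 and from -1.11 to -0.50 for Nr1d2. The cause was not tested.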
